A study of Homo sapiens with 2 samples.

Results

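The clustered protocadherins are cell-surface adhesion proteins of the cadherin superfamily, encoded by 3 neighbouring clusters on chromosome 5. Members were the protein-coding genes with symbols beginning PCDHA, PCDHB or PCDHG in a 900 kb interval that runs from 65.7 kb before the first of them to 107 kb beyond the last constant exon. Gene models were those of GENCODE release 44 on GRCh37, which has the coordinates of hg19. The rule found 53 genes among the 20098 protein-coding genes of chromosomes 1 to 22 and X, with 15 in the α cluster, 16 in the β cluster and 22 in the γ cluster. It also took the peaks that overlap the interval, 8 of the 60126 in the deposited list. All 53 genes are on the plus strand, so that the clusters run in the order α, β, γ from the start of *PCDHA1*.

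Occupancy of CHD4, the ATPase and chromatin remodeller of the NuRD complex, was measured by ChIP-seq in 501Mel cells, an established human melanoma line grown without a further treatment named in the labels. The series has 1 library from the CHD4 ChIP and 1 from the input, prepared from chromatin fixed with 0.4% paraformaldehyde. Since neither was replicated, the values carry no replicate error and conditions were not tested against each other. The data are a list of peaks without read counts, so the depth behind a single peak is unknown, and a place without a listed peak is one where no region passed the authors' threshold.

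In the α and γ clusters each gene has its own large variable exon, with its own promoter, which is spliced to a set of constant exons shared by the whole cluster. The variable exon encodes the extracellular part of the protein and its membrane anchor, whereas the constant exons encode a common cytoplasmic end. The β genes have no constant exons. In neurons each cell uses a few of the variable promoters, chosen at random, whereas the C-type genes at the ends of the α and γ arrays are used more evenly. Promoter choice is known to involve DNA methylation, CTCF and cohesin, with distal enhancers such as HS5-1, which lies between the α constant exons and the β cluster.

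The variable promoters carry short conserved elements, which give the 3 clusters their own promoter signatures. The commonest word of 9 letters in the 300 bp before the starts was GATGTCGCT in the α cluster, GGTGGCGCT in the β cluster and GCGCCGCTG in the γ cluster. All 3 contain the letters CGCT. These words were chosen after their counts were seen. Examples follow on the plus strand of GRCh37, with the word in capitals and 12 bases on either side.
PCDHA1, chr5:140165670-140165702: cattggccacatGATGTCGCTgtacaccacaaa
PCDHA2, chr5:140174365-140174397: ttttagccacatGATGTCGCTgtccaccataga
PCDHA8, chr5:140220714-140220746: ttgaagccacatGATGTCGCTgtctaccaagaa
PCDHA10, chr5:140235425-140235457: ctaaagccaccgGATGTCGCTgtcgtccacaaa
PCDHB2, chr5:140474128-140474160: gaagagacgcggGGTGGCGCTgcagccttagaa
PCDHB3, chr5:140479976-140480008: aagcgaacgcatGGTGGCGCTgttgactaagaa
PCDHB13, chr5:140593436-140593468: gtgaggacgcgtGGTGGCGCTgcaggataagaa
PCDHB15, chr5:140624881-140624913: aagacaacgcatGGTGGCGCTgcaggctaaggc
PCDHGA1, chr5:140709970-140710002: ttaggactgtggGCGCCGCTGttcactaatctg
PCDHGB1, chr5:140729592-140729624: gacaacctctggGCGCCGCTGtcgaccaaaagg
PCDHGA9, chr5:140782281-140782313: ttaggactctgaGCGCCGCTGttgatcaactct
PCDHGA11, chr5:140800539-140800571: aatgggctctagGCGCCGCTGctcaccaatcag

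Counting both strands, the α word occurred in the 300 bp before 10 of 15 α genes and before none of the β or γ genes, and 0.119% of the 20098 protein-coding genes had it. The β word occurred before 13 of 16 β genes, with *PCDHB1*, *PCDHB6* and *PCDHB8* as the exceptions, and before 0.677% of all genes. The γ word occurred before 10 of 22 γ genes and 1.52% of all genes. The α genes *PCDHA9*, *PCDHA11* and *PCDHA13* lacked theirs, and the C-type genes *PCDHAC1*, *PCDHAC2*, *PCDHGC3*, *PCDHGC4* and *PCDHGC5* had no word of their own cluster. Most of these words lay close to the start, from 16 to 86 bp before it in the β cluster and from 44 to 99 bp in the γ cluster. In the α cluster the range was 43 to 78 bp, except for *PCDHA7* with 201 bp, whose start is that of its longest transcript since the annotation names no canonical one. The 4 letters CGCT were found within 250 bp of the start of 53 of 53 members, but also at 89.2% of all protein-coding starts, so that the short core by itself set the members little apart.

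No member had a CHD4 peak at its promoter. Promoters were taken to reach 1000 bp upstream and downstream of the canonical transcript's start, and 1 shared bp was enough. The count was 0 of 53 members, which allows a share of up to 5.66% (3 counts of the total; Wilson 95% interval 0.0% to 6.76%). Over all protein-coding genes 34.8% of promoters overlapped a peak (6985 of 20098; interval 34.1% to 35.4%). The list reaches down to a −log10 q of 1.0, which is weaker than the cut-off named in the methods of the peak call, and 48.5% of its peaks reach 2. The share of all genes depends on this threshold and was 21.4% for peaks whose −log10 q reached 2 and 1.62%, within the members' limit, for those that reached 5. By cluster the count was 0 of 15 α genes, 0 of 16 β genes and 0 of 22 γ genes, which allow up to 20%, 18.8% and 13.6%. These intervals and limits cover counting error only, and neighbouring genes of a cluster are not independent of each other.

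The distance from each start to the nearest peak followed the position in the array. *PCDHGC5* (ENSG00000240764), the last variable exon of the γ cluster, was nearest, with a peak 4689 bp after its start at 140868648. *PCDHGC4* (ENSG00000242419) followed with 8740 bp and *PCDHGC3* (ENSG00000240184) with 17804 bp. The other C-type genes were far from any peak, *PCDHAC1* (ENSG00000248383) by 200313 bp and *PCDHAC2* (ENSG00000243232) by 240490 bp. Both α C-type genes start inside the long peak-free stretch described below, so their distance is set by their position in it. It therefore does not show whether C-type genes differ from other members. The α genes lay from 60.2 to 240 kb from a peak, with a median of 115 kb. The β genes had the largest median, 273 kb, with a range from 208 to 359 kb that overlaps that of the α genes. *PCDHB1* (ENSG00000171815), which stands apart from the rest of its cluster, was 325 kb away. The γ genes had a median of 63.2 kb. All members but the 3 γ C-type genes start inside the peak-free stretch, so these 50 distances run to the peaks at its ends. Those 2 peaks had a −log10 q of 1.61 and 1.77. The cluster medians thus describe map position between 2 peaks and do not show a difference in CHD4 between the clusters.

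**Figure D1:**
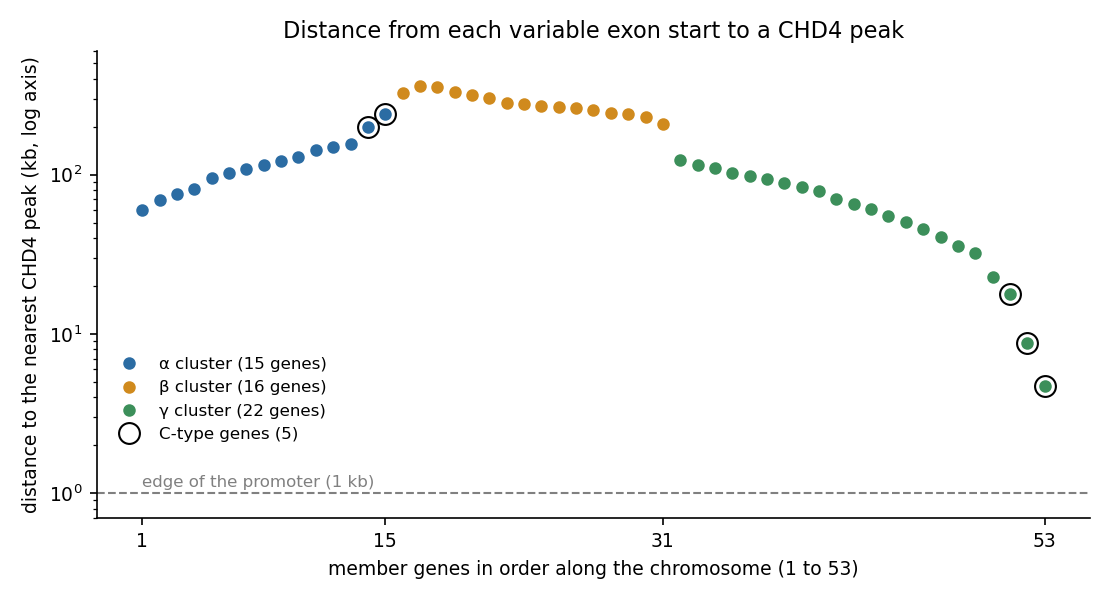
Distance in kb (log axis) from the start of each of the 53 members, in order along the chromosome, to the nearest CHD4 peak, with the 5 C-type genes ringed and a dashed line at the 1 kb edge of the promoter. All points lie above the line, from 4.69 kb for *PCDHGC5* to 359 kb for *PCDHB2*.

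The clusters differed in their median base composition, with overlapping ranges. The ratio of observed to expected CpG in the 500 bp on either side of the start had a median of 0.78 in the α cluster, 0.49 in the β cluster and 0.66 in the γ cluster, against 0.72 over all protein-coding genes. The range was 0.61 to 0.86 in the α, 0.29 to 0.71 in the β and 0.19 to 0.91 in the γ cluster. It reached 0.6 in 15 of 15 α genes, 2 of 16 β genes and 18 of 22 γ genes. Among all genes, 44.6% of promoters with a ratio of at least 0.6 overlapped a peak (5907 of 13253), and 15.7% of those below it (1078 of 6845; interval 14.9% to 16.6%). The members gave 0 of 35 and 0 of 18 in these classes, which allow up to 8.57% and 16.7%. GC content was taken over the same 500 bp on either side of the start. Its median was 44.4% over the 53 members, against 61.2% over all genes, and 55.7% over the 5 C-type genes. Among promoters with a CpG ratio of at least 0.6 and a GC content under 50%, a class added after these values were seen, 36.1% overlapped a peak (108 of 299; interval 30.9% to 41.7%). Of these 299 promoters 30 belonged to members, and 0 of the 30 had a peak.

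**Figure D2:**
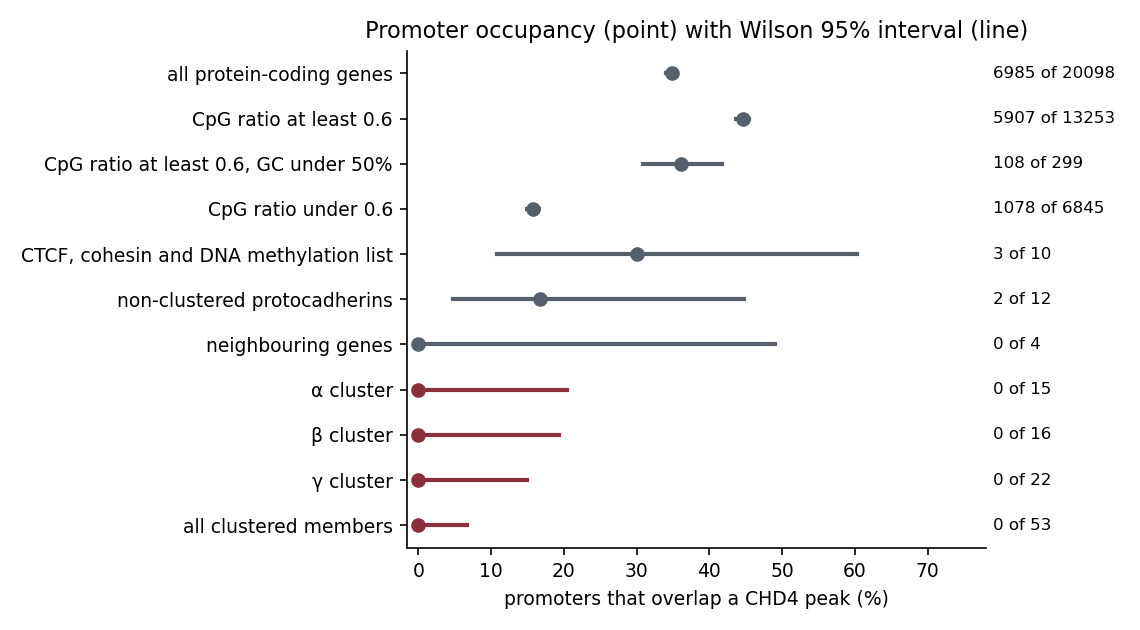
Share of promoters that overlap a CHD4 peak, in percent, with the Wilson 95% interval as a line and the counts at the right, for all protein-coding genes, classes by base composition, the lists of related genes and the clustered members (red). The members are at 0 of 53 and all protein-coding genes at 34.8%.

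The members are paralogues, and the authors kept reads of 50 bases with a single best place, so that a word repeated elsewhere in the genome could not give a kept read. The share of a promoter's 50-base words that occur once in GRCh37 had a median of 99.5% over the 53 members, against 100% over all protein-coding genes, and all of the words were unique in 24 members. It was under 90% in 12 members, 4 in each cluster. The lowest were *PCDHB8* and *PCDHB13*, with 61.3% each, followed by *PCDHA7* with 67.6% and *PCDHA9* with 70.9%. *PCDHB8* and *PCDHB13* share an identical run of 464 bp in their promoter windows, and *PCDHGB4* and *PCDHGB5*, at 75.6% each, one of 492 bp. The count of promoter peaks was 0 among the 24 members with fully unique promoters, which allows up to 12.5%, and 0 among the other 29. Over all genes, 35.3% of fully unique promoters (4027 of 11406) and 34.0% of the others (2958 of 8692) overlapped a peak. In the peak-free part of the clusters described next, 93.0% of the 50-base words were unique.

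**Figure D3:**
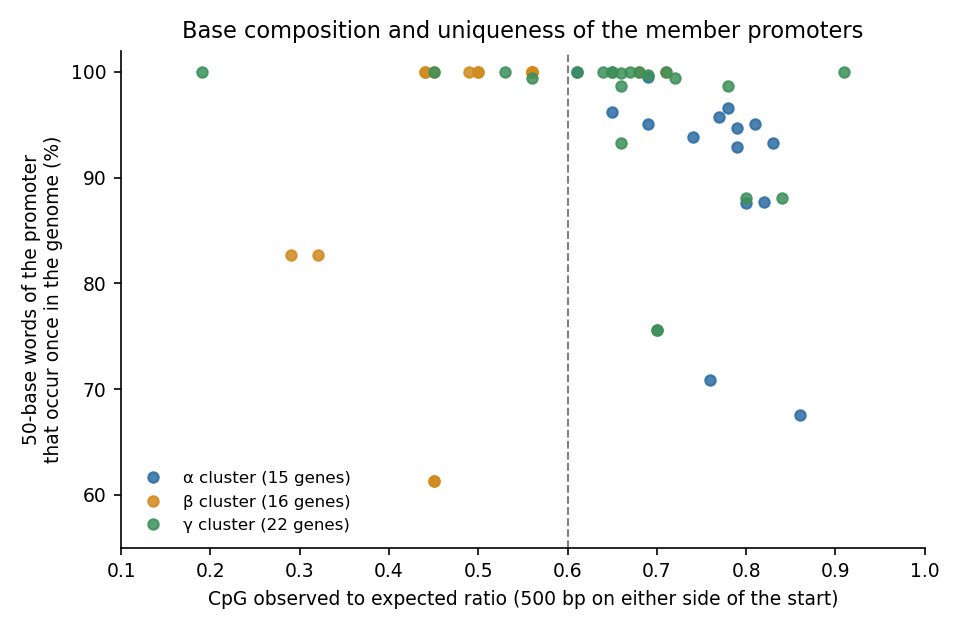
CpG observed to expected ratio within 500 bp of the start (x axis) and percent of 50-base words of the promoter that occur once in the genome (y axis) for the 53 members, with a dashed line at a CpG ratio of 0.6. The α genes all lie right of the line, whereas 2 of 16 β genes do, and 12 of the 53 members lie under 90%.

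The absence of peaks extended well beyond the promoters. No peak lay between 140105572 and 140832905 of chromosome 5, a stretch of 727334 bp that runs from before the α cluster across the β cluster into the γ array. It holds the starts of 50 members. The other 4 protein-coding starts in it were those of *TAF7*, a subunit of the general transcription factor TFIID, *SLC25A2*, a mitochondrial ornithine carrier, and the annotated genes AC005609.1 and ENSG00000279983. With 54 starts it held the most of the 60076 stretches between neighbouring peaks of chromosomes 1 to 22 and X. The next had 51, and a stretch of 5.71 Mb on chromosome X had 50. The peaks at the ends of the protocadherin stretch had a −log10 q of 1.61 and 1.77. Its rank among stretches between peaks that reach 2 was not tested. A stretch of 549 kb on chromosome 17, across keratin and keratin-associated genes, had 39. Length alone was less unusual, since 555 stretches, or 0.924%, were at least as long, 491 of them without unsequenced bases. The peak-free stretch across the protocadherins held 74.2 starts per Mb, against 6.62 per Mb over these chromosomes. Among the stretches at least as long, it was the only 1 with at least this density. Of shorter stretches, the keratin stretch held 71.0 per Mb and another had 20 starts in 118 kb. The density of starts therefore set it apart from stretches of its length or more, but not from shorter peak-free gene clusters. Members account for 50 of its 54 starts, and the rule chose them by symbol and position. The number and density of starts thus largely describe the gene array that was chosen.

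**Figure D4:**
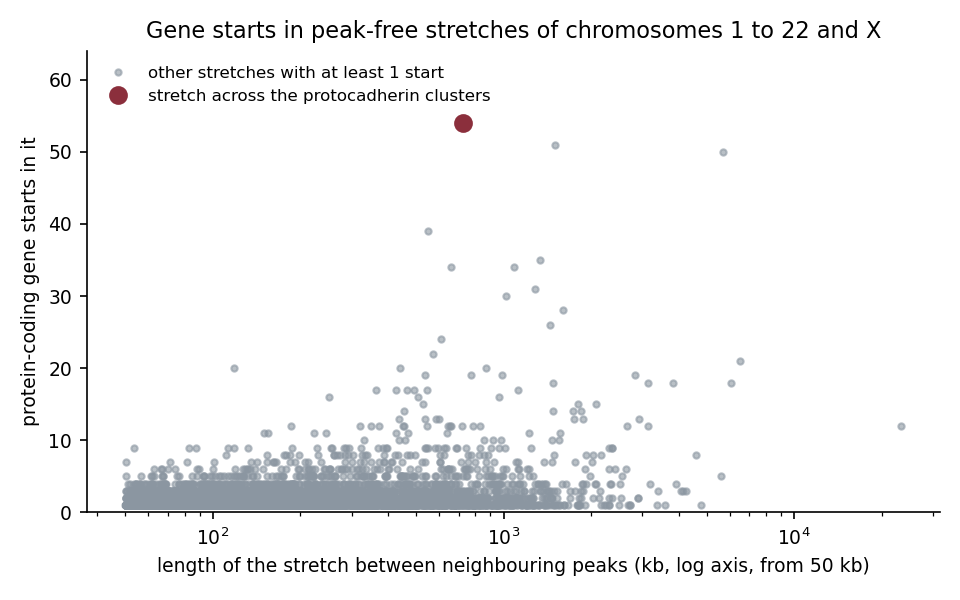
Protein-coding gene starts (y axis) against length in kb (x axis, log scale) for stretches between neighbouring CHD4 peaks that are at least 50 kb long and hold at least 1 start. The stretch across the protocadherin clusters (red) has 54 starts in 727 kb, and the next highest has 51.

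The surroundings were not poor in peaks. The interval as a whole held 8 peaks, or 8.89 per Mb (exact Poisson 95% interval 3.84 to 17.5), against 21.2 per Mb over chromosomes 1 to 22 and X, a ratio of 0.419 (0.181 to 0.826). By base pairs covered the ratio was 0.649. The 900 kb before it held 46 peaks and the 900 kb after it 30, or 51.1 and 33.3 per Mb. From the first to the last member there were 3 peaks, or 4.13 per Mb (0.851 to 12.1). The protein-coding starts with a promoter peak numbered 8 of 22 in the stretch before, 0 of 58 in the interval and 4 of 11 in the stretch after. On chromosome 5 as a whole the share was 26.1% (231 of 884; Wilson 95% interval 23.3% to 29.1%).

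**Figure D5:**
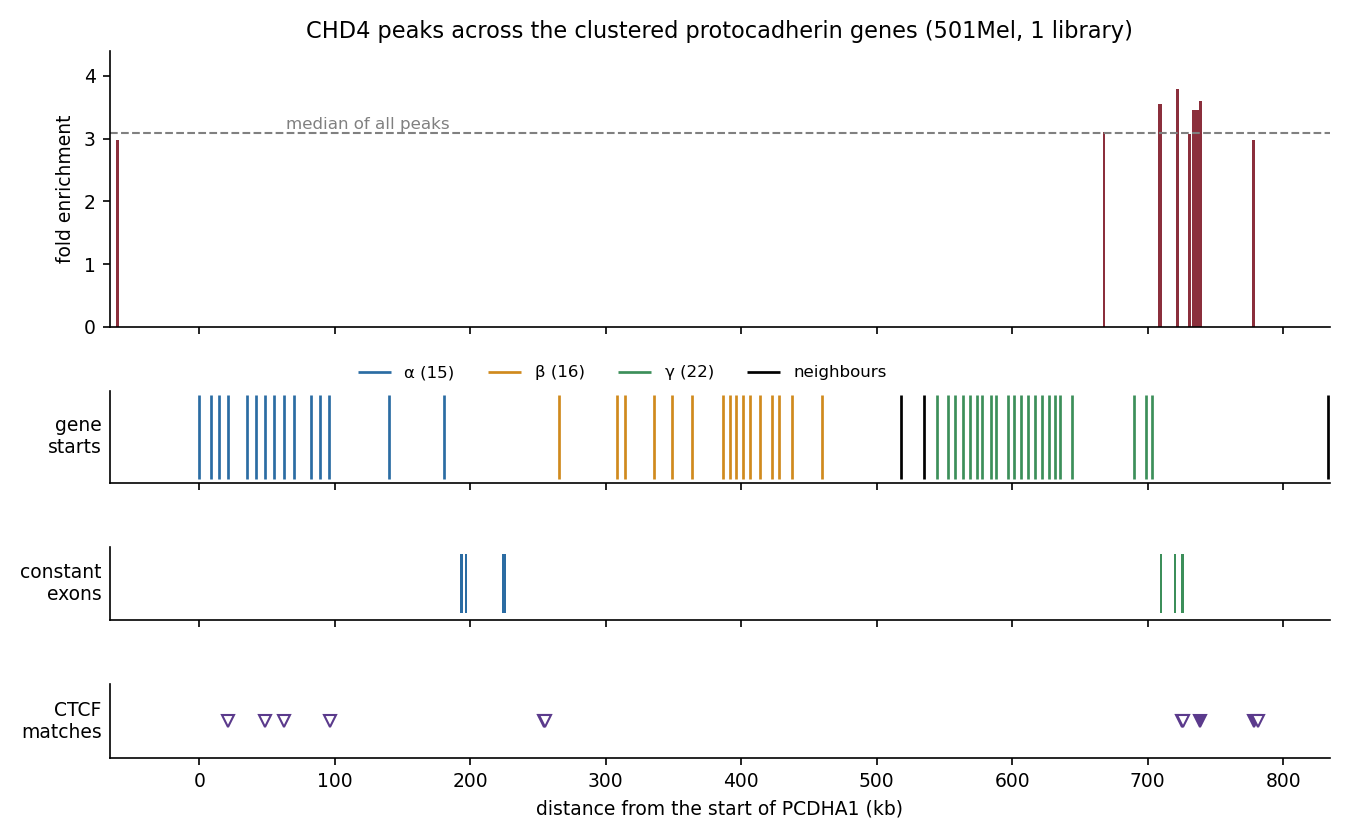
Map of the interval by distance from the start of *PCDHA1* in kb, with the authors' fold enrichment of each of the 8 peaks (bars from 0, drawn at least 2 kb wide; dashed line, median of all peaks, 3.09), the starts of the 53 members and of 3 neighbouring genes, the 6 constant exons and the 11 CTCF consensus matches (filled where a peak covers them). The peaks stand before the α cluster, in the γ variable array, in the γ constant region and beyond it, with none across the α and β clusters.

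Within the clusters, 2 peaks were found in the constant region of the γ cluster and 1 in the γ variable array. The authors' fold enrichment is a ratio of the ChIP to the background of the peak caller, and the −log10 q is its significance after adjustment over the genome. The strongest peak of the interval, chr5:140887291-140888184, was enriched 3.79-fold with a −log10 q of 3.57, and 90.3% of all peaks of the list had a lower fold enrichment (Wilson 95% interval 90.1% to 90.6%). It lies in the intron between γ constant exons 2 and 3, 2242 bp after exon 2 and 2329 bp before exon 3, and touches neither. A short transcript of *PCDHGC3*, which ends inside constant exon 3, has an annotated start inside this peak, at 140887637. That start lies 32104 bp after the start of the canonical transcript. This was the only one of the 118 distinct starts of members' transcripts with a peak within 1000 bp. With the starts of all transcripts, 1 member thus had a promoter peak, against 42.6% of all protein-coding genes. The 60 bases before the start at 140887637 are on the plus strand and intronic in the canonical γ transcripts. They are shown because they are the member sequence nearest to a start that lay under a peak.
Before the inner start of PCDHGC3, chr5:140887577-140887636: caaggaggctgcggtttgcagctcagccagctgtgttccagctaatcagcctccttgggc

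The longest peak within the clusters, chr5:140873337-140876073, spans 2737 bp and covers γ constant exon 1, the exon that all 22 γ genes splice to. It was enriched 3.55-fold, its −log10 q was 3.05, and 81.7% of the list had a lower fold enrichment. The exon accounts for 59 bp of it, with 1037 bp of the intron before and 1641 bp of the intron after, so that the peak was not confined to the exon. All 22 γ genes therefore overlapped a peak, through shared sequence at their common end, whereas 0 of 15 α genes and 0 of 16 β genes did. Over all protein-coding genes 50.9% overlapped a peak anywhere in the gene. The strongest peak also lies in all 22 γ genes, so that this count rests on shared places and not on 22 separate events. The exon is printed in capitals, with 30 intronic bases on either side.
γ constant exon 1, chr5:140874344-140874462: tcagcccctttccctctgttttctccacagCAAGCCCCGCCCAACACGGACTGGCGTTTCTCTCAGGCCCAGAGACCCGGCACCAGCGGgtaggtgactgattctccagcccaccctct

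The third peak in the γ cluster, chr5:140832906-140833819, lies in the gap between *PCDHGA12* and *PCDHGC3*, in the first intron of the 19 γ genes that start before it. It was weaker, at 3.11-fold and a −log10 q of 1.77, and 52.2% of the list had a lower fold enrichment. It differs from the other γ peaks in composition, with a GC content of 36.0% against 53.9% over constant exon 1 and 57.4% for the strongest peak. CpG was rare in all 3, with ratios of 0.07, 0.22 and 0.20, whereas the median over the γ promoters was 0.66. The central 121 bases of this intronic peak read as follows on the plus strand.
Centre of the γ array peak, chr5:140833302-140833422: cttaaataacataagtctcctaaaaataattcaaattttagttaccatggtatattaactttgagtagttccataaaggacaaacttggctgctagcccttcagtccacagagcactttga

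The α constant region held no peak. It spans 33.4 kb, from 140358534 to 140391932, with constant exons 1 and 2 of 59 and 89 bp, the same lengths as in the γ cluster. The γ constant region spans 18.2 kb and had 2 peaks. At the rate of chromosomes 1 to 22 and X these lengths would hold 0.708 and 0.385 peaks, so that 0 against 2 does not set the α region apart. The share of unique 50-base words was similar in both, with 95.6% and 94.6%. No peak lay in the 39.0 kb between the α constant exons and *PCDHB1*, where the HS5-1 enhancer is known to lie, in the 198 kb of the β array or in the 81.1 kb between the β and γ clusters, which at that rate would hold 0.827, 4.2 and 1.72 peaks. No variable exon overlapped a peak either, with 0 of 53, while 14.1% of first exons of all protein-coding genes did.

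Antisense transcripts are known at the variable exons of the α cluster, where they start inside the exon. From the first to the last member the annotation holds 25 lncRNA genes, 14 of them on the minus strand, of which 5 overlap an α variable exon, 5 a β variable exon and 1 a γ variable exon. None of the 25 starts had a peak within 1000 bp, which allows up to 12%. Over all lncRNA genes the share was 17.2% (3194 of 18592).

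The other peaks of the interval lay outside the clusters. Of these, 4 fell in *DIAPH1* (ENSG00000131504), a formin that nucleates actin filaments, which is transcribed towards the γ cluster from the opposite strand. The closest, chr5:140896297-140896889, starts 3754 bp beyond γ constant exon 3, covers 279 bp of exon 28 of *DIAPH1* and had a fold enrichment of 3.07. The next, chr5:140898461-140903168, was the longest of the interval, with 4708 bp, and was enriched 3.46-fold (−log10 q 2.72). It was followed by chr5:140904115-140904886, with 3.60 and 2.78, and by chr5:140943699-140944187, with 2.97 and 1.56. The last 3 overlapped no exon of the canonical transcript. On the other side, chr5:140105097-140105571, with 2.97 and 1.61, lies 60154 bp before *PCDHA1* and 171 bp before the vault RNA gene *VTRNA1-3*. The 8 peaks had a median fold enrichment of 3.28, from 2.97 to 3.79, close to the median of 3.09 over the list. A −log10 q of 2 was reached by 4 of them, the 2 of the γ constant region and 2 in *DIAPH1*, and not by the peak of the γ variable array.

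CTCF binds the variable promoters and distal enhancers of these clusters and, in the α cluster, also the variable exons. Exact matches to the 12-letter CTCF consensus were therefore searched on both strands. The interval held 11, of which 8 lie between the first and the last member and 3 in *DIAPH1*. All 11 are given on the strand of the match, with the match in capitals and 9 bases on either side.
PCDHA4 variable exon, chr5:140187220-140187249, plus strand: tctcggtttCCACTAGAGGGCgcctcggat
PCDHA7 variable exon, chr5:140214416-140214445, plus strand: tctcggtttCCACTAGAGGGCgcgtccgat
PCDHA9 variable exon, chr5:140228528-140228557, plus strand: tctcggtttCCACTAGAGGGCgcgtccgat
PCDHA13 variable exon, chr5:140262301-140262330, plus strand: actcgatttCCACTAGATGGCgcatccgat
First match between the α and β clusters, chr5:140419939-140419968, minus strand: gatctttaaCCAGCAGAGGGCgagtcgact
Second match between the α and β clusters, chr5:140420948-140420977, minus strand: cctcatctgCCACCAGGTGGCaggtggatc
γ constant exon 3, first match, chr5:140890678-140890707, plus strand: ggcaaggccCCAGCAGGTGGCaatggcaac
γ constant exon 3, second match, chr5:140892061-140892090, minus strand: aggctatggCCACTAGGGGGCgcactgggg
DIAPH1, under a peak, chr5:140904452-140904481, minus strand: gatgctcagCCAGCAGGTGGCgctgggagc
DIAPH1, under the last peak, chr5:140943953-140943982, minus strand: tgctttcagCCACCAGATGGCacatggatc
DIAPH1, not under a peak, chr5:140947256-140947285, minus strand: ctcttctgtCCACTAGGTGGCactcaccca

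None of the 8 matches in the clusters lay under a peak, which allows up to 37.5%, or within 1000 bp of one. Genome-wide 8.52% of the 10944 matches lay under a peak (interval 8.01% to 9.05%) and 17.1% within 1000 bp of one. With these shares, 8 matches are too few to set the clusters apart. In *DIAPH1* the count was 2 of 3. The α matches were all on the plus strand, in the variable exons of *PCDHA4*, *PCDHA7*, *PCDHA9* and *PCDHA13*, from 456 to 601 bp after the start. The pair between the α and β clusters lay 1009 bp apart on the minus strand, opposite to the α matches. The remaining pair lay in γ constant exon 3 on opposite strands, 2503 and 3886 bp from the strongest γ peak. Of the 50-base words within 100 bp of the *PCDHA7* and *PCDHA9* matches 35.0% were unique, whereas around the other 9 matches 100% were.

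At promoters, 4 of 53 members had an exact match within 1000 bp of the start, all 4 of them α genes, against 1.44% of all protein-coding genes (290 of 20098). Allowing 1 mismatch raised the count to 12 members, of which 10 were α genes and 2 were β genes, and the share of all genes to 21.3%. None of the 4 exact matches lay within 250 bp of a start. A match is a description of the letters and does not show that CTCF was bound in 501Mel cells, and CTCF occupancy was not analysed here.

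The neighbours and relatives of the clusters gave a context for these counts. None of 4 neighbouring genes had a promoter peak (Wilson 95% interval 0.0% to 49%, which includes the share of 44.6% among promoters with a CpG ratio of at least 0.6), and their CpG ratios were from 0.73 to 0.90. *HDAC3* (ENSG00000171720), the deacetylase of the NCoR and SMRT corepressors, missed the definition narrowly, with a peak 1200 bp from its start. For *DIAPH1* the distance was 19049 bp, for *TAF7* 132555 bp and for *SLC25A2* 149290 bp.

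Of 12 protocadherin genes outside the clusters, 2 had a promoter peak, or 16.7% (interval 4.70% to 44.8%). *PCDH1*, also on chromosome 5, had one of 3.65-fold (−log10 q 3.02), 567 bp from its start. *PCDH18* had one of 2.98-fold (−log10 q 1.55), 19 bp from its start. *PCDH7* and *PCDH9* had no promoter peak but 12 and 8 peaks within the gene. The other 8 were without a promoter peak too. Of these, *PCDH12* had 2 peaks within the gene, and *PCDH10* and *PCDH15* had 1 each. Over all protein-coding genes 50.9% overlapped a peak anywhere in the gene. *PCDH11X* had a promoter of which 32.3% of 50-base words were unique. The interval of the 16.7% with a promoter peak includes the 34.8% of all protein-coding genes.

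Of 10 genes known for the regulation of the clusters, 3 had a promoter peak, or 30.0% (interval 10.8% to 60.3%), near the share of all genes. They were *STAG1*, a cohesin subunit, with a fold enrichment of 3.23 and 2.1 for the −log10 q, *SMC3*, a core cohesin subunit, with 3.04 and 1.68, and the DNA methyltransferase *DNMT3B*, with 2.72 and 1.22. *CTCF* itself had its nearest peak 6231 bp from the start. *RAD21*, *SMC1A* and *STAG2* of cohesin, the cohesin loader *NIPBL*, the cohesin release factor *WAPL* and the chromatin regulator *SMCHD1* had no promoter peak either.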

How the data were processed

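CHD4 ChIP-seq was done in 501Mel cells with 1 ChIP and 1 input library. The authors aligned single reads to hg19 with Bowtie 1.0.0 and called broad peaks with MACS2 2.1.1.20160309, as the submitters' processing notes name them. Whether MACS2 used the input library as its control is not given in the sources used here. The deposited list gives the authors' score, the authors' fold enrichment (a ratio) and −log10 values of p and q for each peak. Every score equals 10 times the −log10 q without its decimals. Read depth is not given in the list.

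Positions are 1-based. Genes came from GENCODE release 44 on GRCh37, and sequence from the same build. The start of the canonical transcript was used, or that of the longest transcript for 279 genes without one, among them *PCDHA6* and *PCDHA7*. A constant exon was shared by at least 2 members. Words of 50 bases were counted on both strands of the genome. Word counting, overlaps and the motif search were tested on simulated data. Wilson 95% intervals were used for shares.

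The members, the lists of genes and the alternatives were chosen with earlier results of these data known. Genes named are members with a promoter peak, the 5 peaks of highest fold enrichment, C-type genes, *PCDHB1*, 4 neighbours, 12 protocadherins outside the clusters and 10 regulators. Other genes and peaks were named after their values were seen. Python 3.11.15, numpy 2.4.6, pandas 2.3.3, scipy 1.17.1, numba 0.67.0 and matplotlib 3.10.9 were used.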

Additional observations from a re-analysis of the deposited data

How the results depend on the processing

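No paired analysis was possible because neither library has a replicate. The count of members with a promoter peak, 0 of 53, could only stay at 0 with a −log10 q of at least 2 or 5, with 500 bp on either side of the start or with the peak's centre in the promoter, so these settings say nothing about its stability. The share of all protein-coding genes, 34.8%, fell to 21.4% at a −log10 q threshold of 2 and to 1.62% at one of 5, which lies within the 5.66% that 0 of 53 allows. It was 29.5% with 500 bp and 30.6% with the peak's centre. The wider settings could raise the count of members. With 2000 bp on either side it was 0, against 39.5% of all protein-coding genes. With the starts of all transcripts it was 1, *PCDHGC3*, and the γ count was 1, against 42.6% of all genes. With 5000 bp on either side, added after seeing the data, it was 1, *PCDHGC5*, and the γ count was 1, against 46.7%. The α and β counts were 0 under these 3 wider settings. The 8 peaks of the interval fell to 4 at a −log10 q threshold of 2 and to 0 at one of 5. They numbered 7 when peaks within 1000 bp were joined and 3 for whole peaks between the first and the last member. Both thresholds and the narrower span can only lower the count. The density ratio of 0.419 moved to 0.649 by base pairs covered, to 0.534 against the long arm of chromosome 5 and to 0.433 for peaks whose −log10 q reached 2, all inside its counting interval. With 40-base words the median unique share was 98.8%, since shorter words repeat more often. Members with a CTCF match at the promoter went from 4 to 12 with 1 mismatch and to 0 within 250 bp of the start. A peak list shows no signal below the authors' threshold, so weaker occupancy of the members could not be detected.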
